A study of Mus musculus with 6 samples.

Results

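The genes described here encode the subunits of the interleukin 12 cytokine family. They were chosen by symbol (Il12a, Il12b, Il23a, Il27 and Ebi3) from a table of read counts, in which transcript rows were summed per symbol, and make up 5 of its 24454 genes. Of the 5, 4 had enough reads to be tested among 9389 genes, and Il12a had no read in any library. RNA was sequenced in 6 libraries, 2 per group, from primary macrophages of the peritoneal cavity that had been taken from male wild-type C57BL6/J mice, 6 to 8 weeks old, and kept in culture. The SGA360+LPS group received 10 µM SGA360, which binds the aryl hydrocarbon receptor (AHR), for 1 h, followed by the bacterial endotoxin LPS at 10 ng/ml for 4 h. The LPS group received LPS at the same dose and time, and its label names no pretreatment. The vehicle group was held in vehicle for 5 h. Nothing in the labels says if the 2 libraries per group are from different mice or cultures, and p-values therefore reflect the spread between these samples alone, which may be technical.

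Cytokines of this family are secreted as pairs of an alpha chain, a helical protein, and a beta chain that resembles a soluble receptor. IL-12 joins p35 (Il12a) with p40 (Il12b), IL-23 joins p19 (Il23a) with the same p40, and IL-27 joins p28 (Il27) with EBI3 (Ebi3). Activated macrophages and dendritic cells are their main source: IL-12 directs T cells and natural killer cells towards interferon gamma, IL-23 sustains T cells that make IL-17, and IL-27 both promotes and restrains T cell responses. Transcription of these genes is known to depend on NF-kB and interferon regulatory factors downstream of Toll-like receptors.

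Levels of 4 of the 5 subunit genes rose with LPS over vehicle. The largest log2 fold change among the 4 tested was that of the beta chain gene Il12b, and that of Il23a is fitted against 0 vehicle reads. Il12b and Il27 had 2 to 9 reads per vehicle library, whereas the level of Ebi3 in vehicle differed widely between the 2 libraries. In bulk RNA a larger number of expressing cells and more RNA per cell cannot be told apart. With SGA360 before LPS, the level of Il12b was 70.4% of that with LPS alone, a difference that did not pass the test over all genes. Il27 and Ebi3 stood at 90.2% and 101% of their level with LPS, and Il23a, at a few reads per library, at 30.2%.

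The proximal promoters of the 2 beta chain genes are shown because both genes were called with LPS and each has 1 window in the RefSeq promoter table (GRCm38.p6, the same assembly as the mm10 build of the count table). Each line gives the 250 bases before the annotated start, on the plus strand: chr11:44399813-44400062 for Il12b and chr17:55952373-55952622 for Ebi3. Capitals mark NF-kB motif matches.
Il12b: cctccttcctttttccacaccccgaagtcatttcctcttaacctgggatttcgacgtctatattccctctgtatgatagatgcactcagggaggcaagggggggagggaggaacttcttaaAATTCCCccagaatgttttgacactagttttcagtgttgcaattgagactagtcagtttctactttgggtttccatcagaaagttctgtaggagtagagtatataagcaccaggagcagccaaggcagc
Ebi3: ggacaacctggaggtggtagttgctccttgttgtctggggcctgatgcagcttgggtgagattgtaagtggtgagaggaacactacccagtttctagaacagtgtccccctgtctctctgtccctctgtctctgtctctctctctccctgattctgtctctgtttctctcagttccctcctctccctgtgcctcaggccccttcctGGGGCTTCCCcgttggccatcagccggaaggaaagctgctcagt
In the Il12b window the NF-kB core GGGAATT was found on the minus strand, from base -129 to base -123 relative to the start. This core belongs to an NF-kB element already known from the Il12b promoter, so its match there was fixed by the choice of motif; 3.08% of 32851 promoter windows of the same length hold it. In the Ebi3 window the NF-kB consensus matched from base -44 to base -35, and 3.9% of all windows hold that consensus. No match was found in either window for the other motifs searched on both strands. AP-1 (TGANTCA) matched in 6.75% of all windows, C/EBP (TTGCNNAA) in 9.56%, IRF (AANNGAAA) in 21.3%, the TATA box (TATAAA) in 12.4% and the core of the AHR response element (GCGTG) in 28.2%. The NF-kB consensus and core can overlap, but did not do so in these windows.

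Total counts ran from 7726973 to 9529817 per library. Vehicle replicate 1 stood apart: 10001 genes had a read in it, against 12282 to 12643 in the other 5 libraries, and reads of the ribosomal RNA gene Rn45s made up 4.92% of its total, against 0.22% to 0.684% elsewhere. Values against vehicle without it are given below for the subunit genes. The 5639 symbols with several transcript rows held 1.87% of all counts, so their values are uncertain; Il12a is one of them, and the other 4 subunit genes have 1 row each. Levels are in CPM, read counts put on 1 library size by TMM, and tests are edgeR's quasi-likelihood test with Benjamini-Hochberg adjustment over all genes tested and a threshold of 0.05.

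Il12b encodes p40, the beta chain of IL-12 and IL-23. The gene spans bases 44400063 to 44414677 of chromosome 11, plus strand (mm10; transcript NM_001303244, 8 exons). It had 155 and 152 CPM in SGA360+LPS libraries, 219.5 and 217 CPM in LPS libraries and 0.559 and 0.937 CPM in vehicle libraries. The vehicle values rest on 5 and 9 reads, and no group overlapped another. For LPS against vehicle the log2 fold change was 8.15 (SE 0.15; adjusted p = 3.28e-10), the 10th largest of 9389 genes. As a ratio of summed reads this was 289-fold, with an exact 95% interval of 172 to 529 that covers counting error only. SGA360+LPS against vehicle gave 7.64 (SE 0.16; adjusted p = 7.70e-10). Without vehicle replicate 1 these values were 7.86 and 7.35.

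Ebi3 encodes the beta chain of IL-27. The gene spans bases 55952623 to 55957022 of chromosome 17, plus strand (NM_015766, 5 exons). It had 46.2 and 43.7 CPM in SGA360+LPS libraries, 48.3 and 41.0 CPM in LPS libraries and 0.447 and 8.64 CPM in vehicle libraries. All 4 LPS-treated libraries lay above both vehicle libraries, and the SGA360+LPS and LPS libraries overlapped. The log2 fold change of LPS against vehicle was 3.26 (SE 0.55; adjusted p = 0.00107), and that of SGA360+LPS against vehicle 3.27 (SE 0.55; adjusted p = 0.00114).

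The size of the Ebi3 rise depended on which vehicle library was used. Vehicle replicate 1 held 4 Ebi3 reads and vehicle replicate 2 held 83, a 19.3-fold difference in CPM. On the log2(CPM + 1) scale this was the 4th largest excess of vehicle replicate 2 over replicate 1 among 9389 genes. Of the other 501 genes with 70 to 100 reads in vehicle replicate 2, the median count in replicate 1 was 81, and 2 genes (Gcnt2 and Stk36, named after their values were seen) had at most 4. Without vehicle replicate 1 the log2 fold change of LPS against vehicle was 2.38 (adjusted p = 1.27e-08), and without vehicle replicate 2 it was 6.61 (adjusted p = 2.50e-11). For SGA360+LPS against vehicle these values were 2.39 and 6.62. The call and its direction were kept in both cases. The antisense gene Gm16712 overlaps Ebi3 on the opposite strand and had 33 and 34 reads in SGA360+LPS libraries, 21 and 43 in LPS libraries and 0 and 7 in vehicle libraries. No source used here gives the strand setting of the counting, so reads of Ebi3 and Gm16712 cannot be told apart.

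Il27 encodes p28, the alpha chain of IL-27. The gene spans bases 126589295 to 126594910 of chromosome 7, minus strand (NM_145636, 5 exons). It had 26.2 and 24.2 CPM in SGA360+LPS libraries, 28.6 and 27.2 CPM in LPS libraries and 0.224 and 0.312 CPM in vehicle libraries. Vehicle libraries held 2 and 3 reads, and both lay below the 4 LPS-treated libraries. For LPS against vehicle the log2 fold change was 6.62 (SE 0.28; adjusted p = 4.90e-08), with a ratio of summed reads of 103, with an exact 95% counting interval of 44.0 to 320. SGA360+LPS against vehicle gave 6.47 (SE 0.29; adjusted p = 6.74e-08). In the 14 alternative analyses the log2 fold change stayed from 6.43 to 6.89 for LPS and from 6.28 to 6.74 for SGA360+LPS, each with a call. Without vehicle replicate 1 these values were 6.43 and 6.28.

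Il23a encodes p19, the alpha chain of IL-23. The gene spans bases 128296140 to 128298084 of chromosome 10, minus strand (NM_031252, 4 exons). It had 2 and 6 reads in SGA360+LPS libraries, 14 and 11 reads in LPS libraries and 0 reads in both vehicle libraries. These counts correspond to 0.254 and 0.672 CPM with SGA360+LPS and 1.86 and 1.20 CPM with LPS. A count of 0 allows up to 0.335 and 0.312 CPM in the vehicle libraries (3 reads, counting error only). Against 3 reads per vehicle library the mean with LPS was at least 4.73-fold higher, and the test called the rise (adjusted p = 0.00829). That call was lost without LPS replicate 1 (adjusted p = 0.107) or LPS replicate 2 (adjusted p = 0.067), and over 13 alternatives it ran from 0.00203 to 0.107. SGA360+LPS against vehicle was not called (adjusted p = 0.0606), but limma-voom called it (adjusted p = 0.0359); over 12 alternatives adjusted p lay between 0.0359 and 0.343. SGA360+LPS replicate 1, at 2 reads, lay under what a count of 0 allows in vehicle, so it was not shown to differ from vehicle at this depth. Without vehicle replicate 1 the adjusted p was 0.00336 for LPS against vehicle and 0.0693 for SGA360+LPS against vehicle.

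Il12a encodes p35, the alpha chain of IL-12, and is known to be transcribed at lower levels than Il12b in macrophages. It spans bases 68690644 to 68698550 of chromosome 3, plus strand, in 2 transcript rows (NM_001159424 and NM_008351). It had 0 reads in all 6 libraries, which would allow at most 0.399 CPM in any of them. No source used here tells how reads shared by both transcripts were counted, so no statement on its expression is made.

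**Figure D1:**
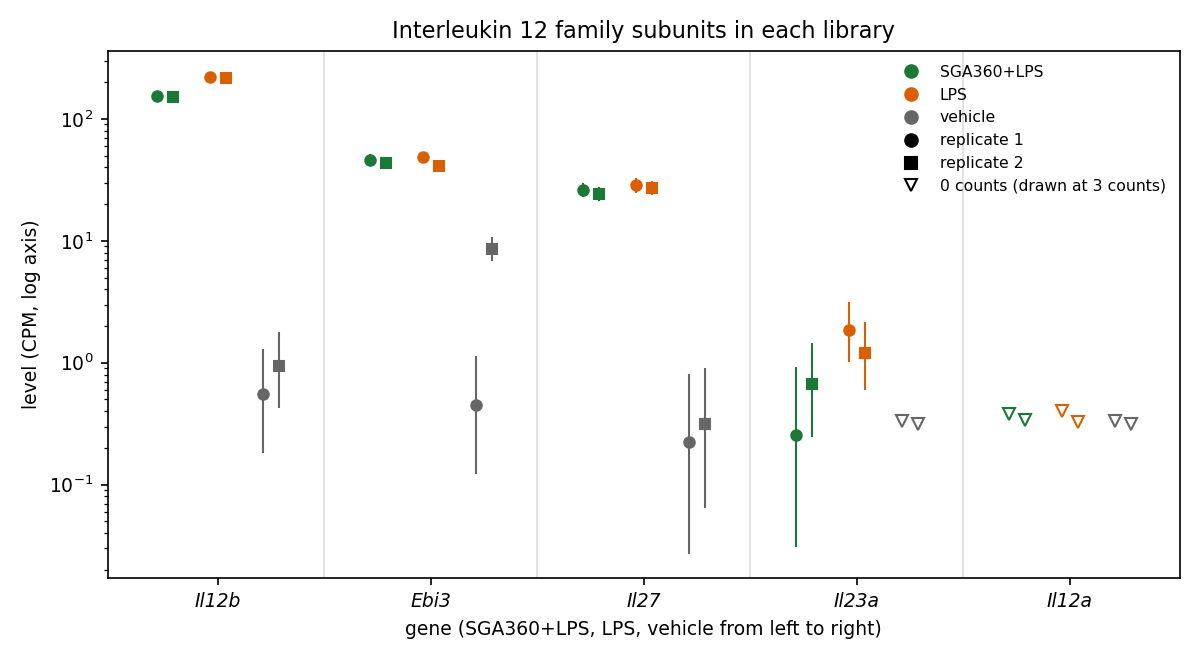
Level of each subunit gene in CPM (log axis) in every library, by group; bars are exact 95% Poisson intervals that cover counting error only, and open triangles are libraries with 0 counts, drawn at 3 counts. Il12b, Ebi3 and Il27 with SGA360+LPS or LPS lie between 24.2 and 219.5 CPM, all above vehicle, and the 2 vehicle libraries of Ebi3 (0.447 and 8.64 CPM) lie far apart.

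LPS against vehicle was called higher for all 4 subunit genes tested, where 19.4% of all 9389 genes tested were called higher (36.4% in either direction). For SGA360+LPS against vehicle Il12b, Il27 and Ebi3 were called higher, where 17.9% of all genes were. None of the 4 had 10 reads in both vehicle libraries, so they passed the filter on low counts through the LPS-treated libraries in which they are high, and nothing is read from these counts against the share over all genes. The LPS and SGA360+LPS comparisons share their vehicle libraries.

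**Figure D2:**
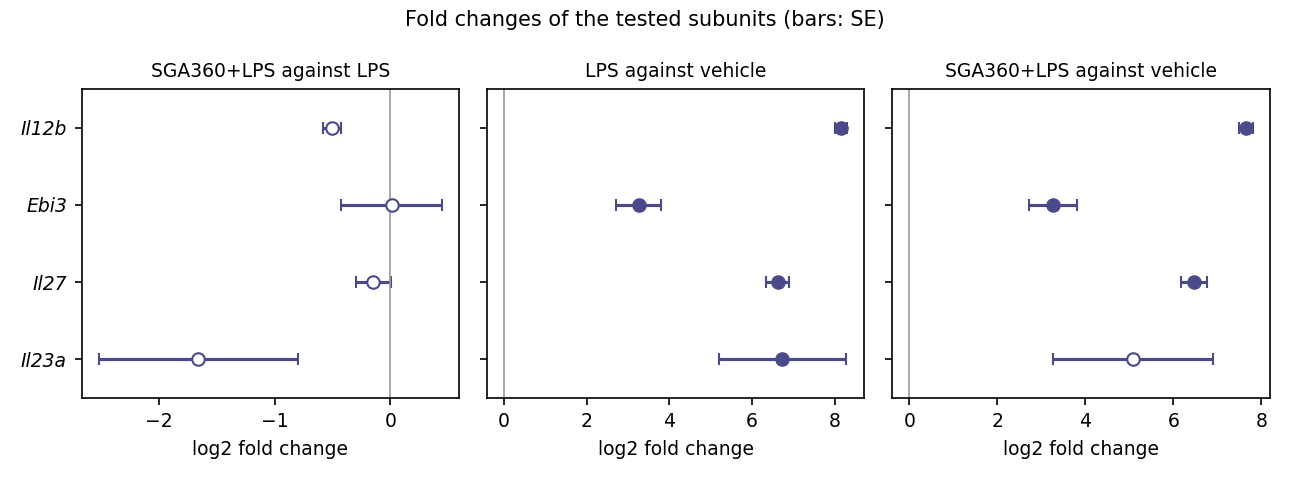
Log2 fold change of the 4 tested subunit genes in each comparison, with SE as bars; filled points passed an adjusted p of 0.05. In the panel of SGA360+LPS against LPS no point is filled, and Il12b at -0.51 has the narrowest bar; the vehicle comparisons of Il23a are fitted values against 0 reads and are no measured fold.

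Per length of transcript the order of the genes could be compared. On the RPKM scale (CPM divided by the length in kilobases, using the exon lengths of the deposited table) Il12b was highest with LPS, at 61.1 ± 0.954 with SGA360+LPS and 86.8 ± 0.754 with LPS (SD, n = 2). Ebi3 followed with 38.2 ± 1.52 and 38.0 ± 4.38 RPKM, and Il27 with 35.5 ± 1.95 and 39.3 ± 1.37 RPKM. Ebi3 and Il27 encode the chains of IL-27. In SGA360+LPS libraries Ebi3, at 39.3 and 37.2 RPKM, lay above Il27, at 36.8 and 34.1 RPKM, and in the LPS libraries, at 41.1 and 34.9 against 40.3 and 38.3 RPKM, the genes overlapped. The ratio of Ebi3 to Il27 was 1.07 and 1.09 in SGA360+LPS libraries and 1.02 and 0.909 in LPS libraries. Il23a reached 0.340 ± 0.217 RPKM with SGA360+LPS and 1.12 ± 0.342 RPKM with LPS. The level of p40 transcript was thus 332 and 123 times that of p19 in SGA360+LPS libraries and 63.9 and 97.8 times in LPS libraries. These ratios are imprecise, as they rest on 2 and 6 Il23a reads with SGA360+LPS and 14 and 11 with LPS. In vehicle, Ebi3 was at 0.380 and 7.34 RPKM, Il27 at 0.315 and 0.440 RPKM and Il12b at 0.222 and 0.373 RPKM. In vehicle replicate 1 these 3 genes rested on 2 to 5 reads each, so their order there was not detectable at this depth.

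The comparison of SGA360+LPS with LPS asks what the AHR ligand did to these genes under endotoxin. None of the 4 tested subunit genes was called, against 0.0746% of all 9389 genes (7 lower, 0 higher); 276 genes had an unadjusted p under 0.05. DESeq2 and limma-voom called 1 of the 4, Il12b. The log2 fold change of Il12b was -0.51 (SE 0.08; adjusted p = 0.0998), with the 8th lowest p of all genes tested. Both SGA360+LPS libraries (1223 and 1356 reads) lay below both LPS libraries (1650 and 1983 reads), as they did in CPM, and the ratio of summed scaled reads was 0.704 with an exact 95% counting interval of 0.669 to 0.741. In the 14 alternatives the log2 fold change stayed from -0.52 to -0.49. It was called in 6 of them: DESeq2, limma-voom, the fit with no filter, the fit of the 4 libraries compared, and the fits without vehicle replicate 1 or 2. The adjusted p ran from 0.000135 to 1, with 1 in each fit that left out an LPS or SGA360+LPS library. In the fit of the 4 libraries alone it was 0.00154.

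The other subunit genes gave smaller or less certain differences. For Il27 the log2 fold change was -0.15 (SE 0.15; adjusted p = 1), and its SGA360+LPS libraries, at 26.2 and 24.2 CPM, lay below those with LPS, at 28.6 and 27.2 CPM. The ratio of summed reads was 0.902, and its counting interval of 0.789 to 1.03 included 1. For Ebi3 it was 0.012 (SE 0.43; adjusted p = 1) with overlapping groups, a ratio of 1.01 and a counting interval of 0.914 to 1.12. Its SE was 0.10 in the fit without the vehicle libraries. For Il23a it was -1.66 (SE 0.86; adjusted p = 1), from 8 reads with SGA360+LPS and 25 with LPS; the ratio was 0.317, with a counting interval of 0.124 to 0.726. Whether the difference of Il12b is larger than that of Il27 or Ebi3 was not tested.

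**Figure D3:**
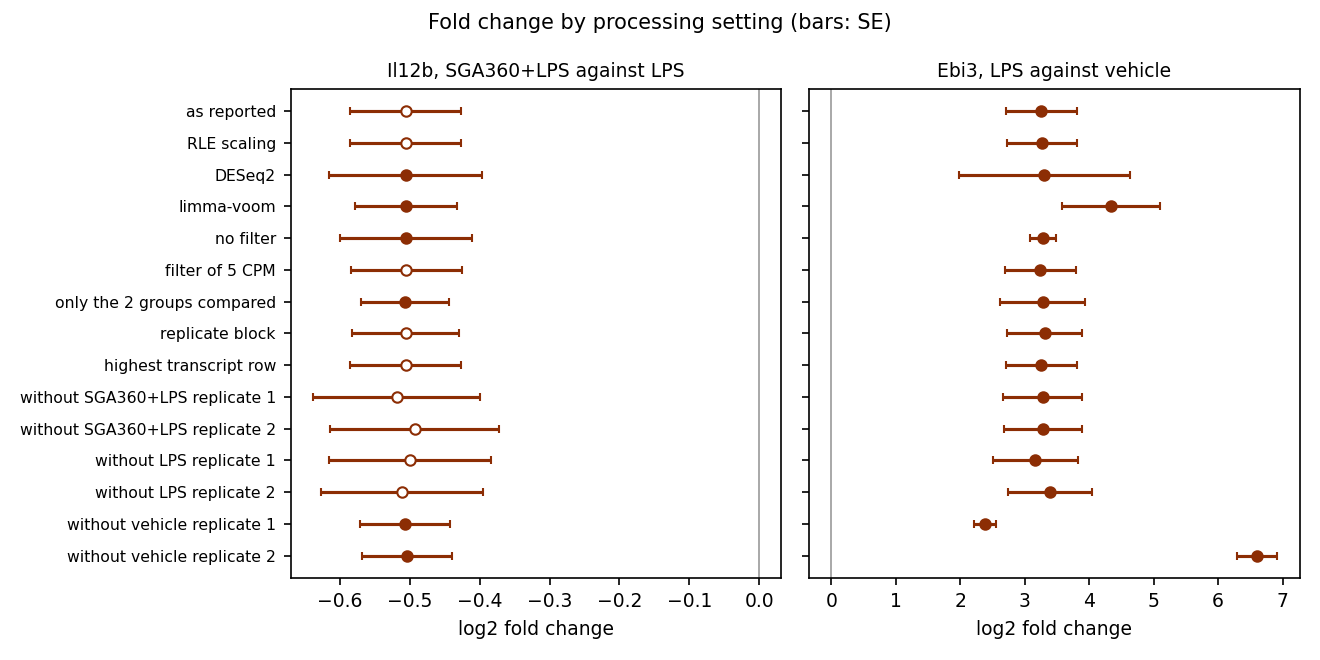
Log2 fold change, with SE as bars, of Il12b in SGA360+LPS against LPS and of Ebi3 in LPS against vehicle under each processing setting; filled points passed an adjusted p of 0.05. Il12b stays from -0.52 to -0.49 while its call changes, and Ebi3 moves to 2.38 or 6.61 when 1 vehicle library is left out.

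Genes with the most similar course over the 6 libraries were sought by the root mean square difference of log2(CPM + 1), centred per gene, among 7362 other genes with a mean of at least 5 CPM. For Il12b these were Gbp5, an interferon-inducible GTPase gene (difference 0.165, Pearson r 0.9987), the cystine transporter gene Slc7a11 (0.216, r 0.999), the C-type lectin gene Clec4e (0.425), the prostaglandin E synthase gene Ptges (0.488) and the chemokine gene Ccl5 (0.52). For Il27 they were Icosl, encoding a ligand of the T cell costimulator ICOS (0.0931), AA467197 (0.0948), the survival gene Bcl2a1d (0.0964), Lad1 (0.126) and the NF-kB signalling gene Malt1 (0.141). The distances were larger for Ebi3: the B cell attractant gene Cxcl13 (0.452), Wnt6 (0.465), Gpr85 (0.541), Zc3h12c (0.544) and Cd69 (0.593). Among the subunit genes the difference was 1.09 between Il12b and Il27, 0.858 between Il27 and Ebi3 and 1.64 between Il12b and Ebi3. These are descriptions over 6 libraries that share their groups. Adding 1 CPM shrinks the rise of genes under 1 CPM in vehicle, such as Il12b and Il27, so a small difference is no equal fold change. Icosl averaged 8.75 CPM in vehicle and 217 CPM with LPS, and Il27 0.268 and 27.9 CPM. The differences between subunit genes depend on the added 1 CPM in the same way.

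Of the 5 receptor chains listed, Il6st and Il27ra had enough reads to be tested. Il6st, encoding gp130, a signalling chain of the IL-27 receptor, had 244 and 255 CPM with SGA360+LPS, 266 and 273 CPM with LPS and 257 and 252 CPM with vehicle. It was not called in any comparison, and for LPS against vehicle stood at 0.081 on the log2 scale (SE 0.07; adjusted p = 0.367). Il27ra, the specific chain of the same receptor, rose to 16.6 and 14.5 CPM with LPS, against 8.05 and 9.68 CPM in vehicle (log2 fold change 0.81, SE 0.20; adjusted p = 0.00926), a call that was lost without LPS replicate 1 (adjusted p = 0.0827, the highest of a range from 0.000718). It had 14.4 and 13.8 CPM with SGA360+LPS, which was called against vehicle (0.66; adjusted p = 0.0267) but not against LPS (-0.15; adjusted p = 1). The call against vehicle was lost in 5 of 14 alternatives: by DESeq2 (adjusted p = 0.0983), in the fit of the 4 libraries compared (0.0651), without either SGA360+LPS library (0.141 for replicate 1, 0.113 for replicate 2) and without LPS replicate 1 (0.0511). Both chains of the IL-27 receptor were thus measured in the same cultures as both chains of its ligand. Il12rb1, the chain shared by the IL-12 and IL-23 receptors, had 5 and 2 reads with SGA360+LPS, 6 and 3 with LPS and 17 and 8 in vehicle, and was not tested. Il23r had at most 2 reads in any library. Il12rb2 had 2 to 10 reads and has 2 transcript rows, so its value is uncertain.

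Of 8 kinases and STAT proteins of these receptors only Jak1 was tested. It rose with LPS (log2 fold change 0.42, SE 0.07; adjusted p = 0.000989). The other 7 have 2 or more transcript rows and were not tested. Across all lists of receptors, signalling proteins and regulators, 31 of 65 genes were not tested, and 24 of these have several rows.

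Regulators of the family moved with LPS in both directions. Of 13 tested transcription factors (of 19 listed), 8 rose, 2 fell and 3 had no call, with a median log2 fold change of 1.19; of all genes tested 19.4% rose and 17% fell, with a median of -0.0084. Ets2 rose by 2.73, Nfkb1, encoding the p50 subunit of NF-kB, by 2.67, the AP-1 partner gene Batf by 2.41 and Junb by 1.69. Spi1, encoding the lineage factor PU.1, rose by 1.19 and Rela by 1.07. Rel, encoding the NF-kB subunit c-Rel on which Il12b is known to depend, was added after its values were seen. It rose to 40.8 CPM with LPS, against 12.7 CPM in vehicle (1.68, SE 0.13; adjusted p = 5.02e-06). The 2 that fell were Fos (-1.89) and Jun (-0.78). Irf1, Irf3, Irf5 and Irf8, which are known to act on these genes, have several rows and at most 13 reads per library, so no statement on them is made.

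Of 13 tested feedback genes and repressors (of 17), 7 rose and 4 fell with LPS, where 19.4% of all genes tested rose and 17% fell. Socs3, encoding an inhibitor of cytokine signalling through gp130, rose by 2.92 and Zc3h12a, encoding the RNase Regnase-1 that degrades Il12b mRNA, by 2.45. Nfkbid (1.38), Bcl3 (1.12) and Zfp36 (0.67) rose as well. Zfp36 encodes tristetraprolin, a protein that destabilises cytokine mRNAs including Il23a. The largest log2 fold change of the list, 5.24, was that of Tnfaip3 (adjusted p = 0.00214), which had 0 and 1 reads in vehicle. Tnfaip3 has 2 transcript rows, so its value is uncertain. Those that fell were Maf (-1.36), Bcl6 (-0.59), Zfp36l1 (-0.53) and Zfp36l2 (-0.22). The call of Bcl6 was lost without LPS replicate 1 (adjusted p = 0.0928) and that of Zfp36l2 in 8 of 14 alternatives (adjusted p = 0.0557 to 0.229), among them each fit that left out 1 library other than vehicle replicate 1. Maf encodes a factor that represses Il12b in macrophages, and it averaged 112 CPM with LPS, against 286 CPM in vehicle. Il10, encoding a cytokine that restrains IL-12 production, had 2 and 1 reads with SGA360+LPS, 4 and 4 with LPS and 14 and 3 in vehicle, and was not tested. In SGA360+LPS against LPS none of the 13 transcription factors and none of the 13 feedback genes was called, where 0.0746% of all 9389 genes were. At that share the absence of calls among so few genes is not read as absence of change. Their medians were -0.04 and -0.03, against 0.0012 over all genes tested. Socs3 was at 547.5 CPM with SGA360+LPS and 691 CPM with LPS (log2 fold change -0.34, SE 0.09; adjusted p = 1), and with no filter it was called (adjusted p = 0.0139).

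**Figure D4:**
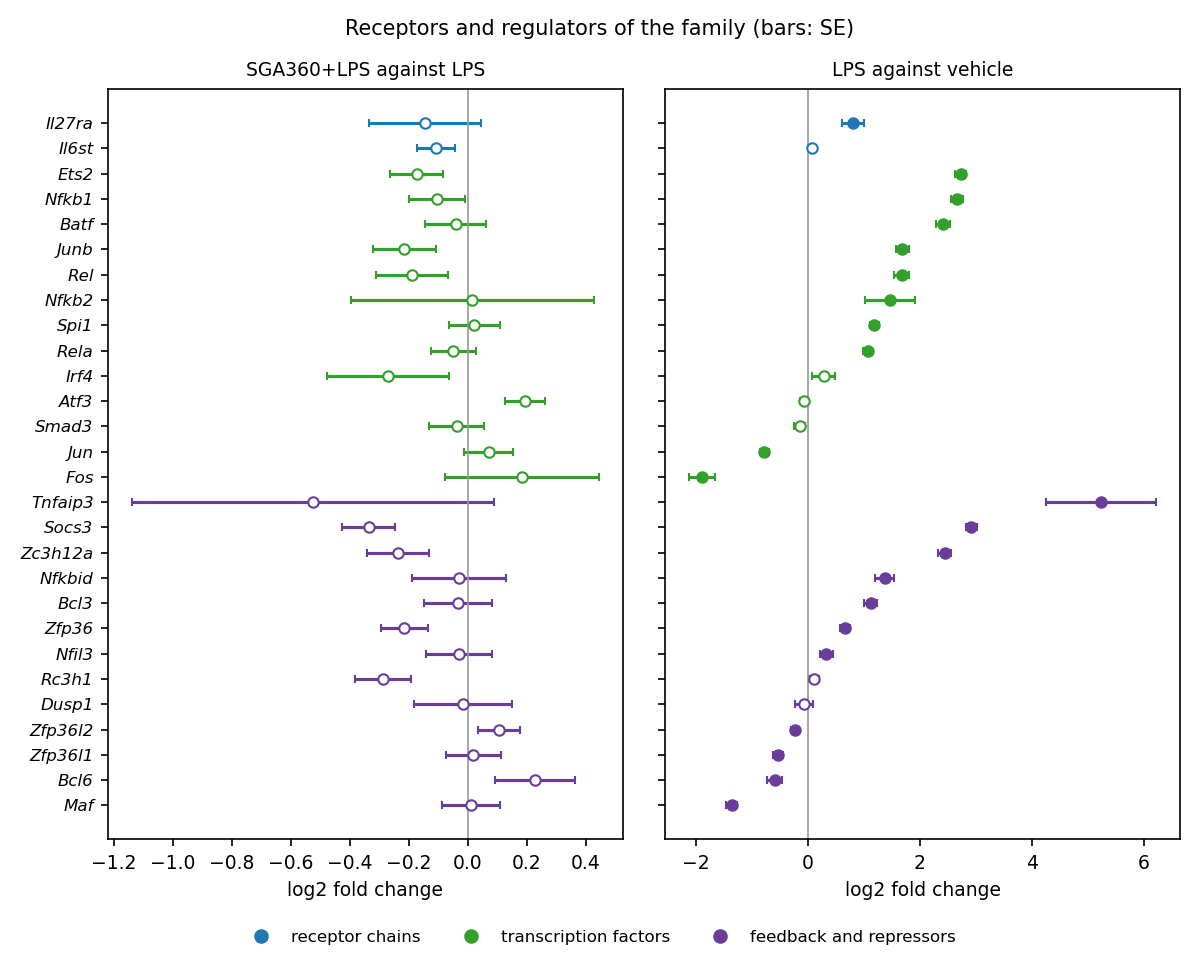
Log2 fold change, with SE as bars, of tested receptor chains, transcription factors and feedback genes in SGA360+LPS against LPS and in LPS against vehicle, ordered within each list by the value for LPS against vehicle; filled points passed an adjusted p of 0.05. Filled points lie on both sides of 0 for LPS against vehicle, and none is filled for SGA360+LPS against LPS.

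Of cytokines related in structure, Osm was the 1 gene tested and rose with LPS (log2 fold change 0.60; adjusted p = 0.023), a call lost by DESeq2 (adjusted p = 0.0889), in the fit of the 4 libraries compared (0.0527) and without LPS replicate 1 (0.0597) or 2 (0.182). Of genes known to respond to interferon gamma, which IL-12 elicits from lymphocytes, 4 were tested. Cxcl10 (6.00) and Gbp2 (5.07) were called higher with LPS, where 19.4% of all genes tested were. Whether their rise depends on IL-12 or interferon gamma was not tested. Cxcl9 (1.33, adjusted p = 0.151) and Tbx21 (2.49, adjusted p = 0.0994) were not called. Without vehicle replicate 1 Cxcl9 was called (0.0214), and without vehicle replicate 2 Tbx21 (0.00944). Ifng itself had 2 and 7 reads with SGA360+LPS, 6 and 11 with LPS and 0 in vehicle, and was not tested.

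Markers of other cells that make these cytokines were compared beside the results. Of 10 dendritic cell markers 5 were tested. Itgax (0.60) and Fscn1 (0.60), which macrophages also express, rose with LPS, where 19.4% of all genes tested were called higher. Zbtb46 (1.02, adjusted p = 0.0965) had no call, but was called with no filter (0.0405). Without vehicle replicate 2 its log2 fold change was 1.55. The summed level of the 10 was 932 and 889 CPM with SGA360+LPS, 865 and 849.5 CPM with LPS and 555 and 580.4 CPM in vehicle. Most of that sum was Fscn1 (mean 639 CPM with LPS and 422 CPM in vehicle) and Itgax (208 and 138 CPM). Ccr7, Clec9a and Siglech, all with several rows, were at 0 in all libraries. Zbtb46 has 2 transcript rows as well, so its value is uncertain. The part of the dendritic cell markers in the rise of the subunit genes was not tested. Macrophage markers summed to between 21220 and 26300 CPM in every library, and most of that sum was Lyz2, encoding lysozyme (20540 CPM with LPS and 19760 CPM in vehicle). Of the 10 tested, 3 rose with LPS, where 19.4% of all genes tested were called higher. These were Cd14 (2.98), a coreceptor for LPS, Adgre1 (1.30), encoding F4/80, and Timd4 (1.29). The 4 that fell, where 17% of all genes tested were called lower, were Fcgr1 (-2.39), Mertk (-2.14), Gata6 (-0.48) and Csf1r (-0.34). The call of Csf1r was lost without LPS replicate 1 (adjusted p = 0.0908) or 2 (0.0525), and that of Timd4 in 4 of 14 alternatives (adjusted p = 0.0521 to 0.26), those without either SGA360+LPS library or LPS replicate 2 and the fit of the 4 libraries compared. Of the 6 B cell markers in the table none of the 4 tested was called with LPS, and their summed level was 29.7 to 34.2 CPM. The number of B cell markers called changed without vehicle replicate 2, as did the number of all genes called. Of tested markers of other cells, 1 of 3 neutrophil and 1 of 5 mast cell markers were called higher with LPS, where 19.4% of all genes were, and 3 of 7 mesothelial and 1 of 6 fibroblast markers lower, where 17% of all genes were. The 1 T and natural killer cell marker tested had no call. These counts rest on few genes. Some of them changed when 1 vehicle or LPS library was left out, as did the number of all genes called. The mast cell call was not kept without either LPS library. The mast cell call was also lost with DESeq2, limma-voom, the replicate number as a block and the fit of the 4 libraries compared. The same held with no filter and with a filter of 5 CPM. Between the 2 vehicle libraries, in which Ebi3 differed, the dendritic cell and B cell sums were 555 and 580.4 CPM and 32.5 and 34.2 CPM.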

How the data were processed

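PolyA-enriched RNA of 6 libraries was sequenced. The authors deposited 1 table of raw read counts per RefSeq transcript row, made with TopHat2 2.0.13 and HTSeq 0.5.4p3 on mm10 per the submitters' processing notes. The strand setting, the annotation and how shared reads were treated are not stated there. Exon lengths, another deposited column, gave RPKM.

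Rows were summed per symbol (24454), filtered with filterByExpr (minimum count 10), scaled by TMM and tested in 1 model of 3 groups with glmQLFit and glmQLFTest of edgeR 4.0.16 (R 4.3.3), with 3 residual degrees of freedom. SE was computed as the log2 fold change, without its sign, over the root of F. Alternatives used DESeq2 1.42.0, limma 3.58.1, other filters and scaling, the replicate number as a block, and each library left out. The code was tested on simulated counts with known changes. No replicate pair agreed within sampling noise (mean chi-square per gene 4.12 to 43.7). Starts in the table are given plus 1 base, and exons follow GENCODE.

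The members and lists were chosen with earlier results of these data known. Named are all subunit genes and receptors, up to 6 called genes per list by adjusted p in LPS against vehicle and up to 4 in the other comparisons, with a mean of at least 1 CPM (in lists with no call, up to 2 most abundant), and the 5 most similar genes, predicted genes left out. Chosen after seeing their values were Rel, Fos, Jun, Bcl6, Zfp36l1, Zfp36l2, Il10, Ifng, Cxcl9, Tbx21, Zbtb46 and the interferon regulatory factors. Gcnt2, Stk36, Timd4, Lyz2 and Tnfaip3 were too, as was Socs3 in the comparison with LPS.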

Additional observations from a re-analysis of the deposited data

How the results depend on the processing

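The directions and calls of Il12b, Il27 and Ebi3 against vehicle were the same in all 14 alternatives; the size for Ebi3 moved with the vehicle library left out, from 2.38 to 6.61 for LPS. For SGA360+LPS against LPS the log2 fold change of Il12b, not called at -0.51, was called by DESeq2 (-0.5063), limma-voom (-0.5061), with no filter (-0.5057) and in the fit of only the 2 groups compared (-0.5073), which made 1 subunit gene called in each. With 1 library left out it ran from -0.519 to -0.4929, with 0 or 1 subunit genes called, and Ebi3 ran from -0.1007 to 0.1293. With 1 library left out, the log2 fold change of Il23a for LPS against vehicle ran from 6.447 to 7.014, with the call lost without either LPS library; for SGA360+LPS against vehicle limma-voom called it at 3.182. These fitted values rest on 0 vehicle reads, and the filter of 5 CPM left Il23a untested. DESeq2 gave no adjusted p for Il23a, Il27 and Ebi3 in SGA360+LPS against LPS, and the fit of only the 2 groups compared left Il23a untested in both comparisons with SGA360+LPS.

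Of all genes, 7 were called for SGA360+LPS against LPS, but 11 by DESeq2, 17 with no filter, 12 in the fit of only the 2 groups compared and 0 to 16 with 1 library left out. For LPS against vehicle the count was 3413, and 2091 to 5494 with 1 library left out; for SGA360+LPS against vehicle it was 3107, and 1831 to 5315. The cause was not tested. For the other named genes 512 of 542 values under alternatives kept their direction and side of the threshold, 25 lost a call, 5 gained one and 0 reversed. Counts of calls in the gene lists moved by over 1.5 times in 2 of 196 values for SGA360+LPS against LPS, 30 of 196 for LPS against vehicle and 17 of 196 for SGA360+LPS against vehicle; those of the transcription factors and the feedback genes against vehicle were not among them.

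With the replicate number as a block, Il12b gave -0.5062 for SGA360+LPS against LPS (adjusted p = 0.133) and 8.149 for LPS against vehicle, and no call of a subunit gene changed. Deviations of same-numbered libraries correlated at 0.198 between SGA360+LPS and LPS, but at 0.0144 and -0.00366 with vehicle. The labels do not say that the numbers pair libraries, so they were not taken as pairs. Whether same-numbered SGA360+LPS and LPS libraries are paired was not tested. Il23a and vehicle Il27 rest on few reads, which limits their precision.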
